A study of Mus musculus with 6 samples.

Results

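The tumor necrosis factor (TNF) superfamily was examined in colon tissue with tumors from mice with colitis-associated cancer (CAC). Members were found by name: gene probes of the microarray whose gene name starts with Tnfrsf or Tnfsf, or is Tnf, Lta, Ltb, Ltbr, Cd40, Cd40lg, Fas, Fasl, Cd27, Cd70, Eda2r, Edar or Ngfr. This gave 45 of the 37325 gene names on the array, namely 17 ligands, 27 receptors and 1 antisense transcript, Tnfsf13os, on 75 probes. C57BL/6 mice of both groups had received azoxymethane (AOM) and dextran sulfate sodium (DSS), which together produce an inflamed colon with tumors. The test group, labelled Rgnanomedicine and called RG@M-γ-CD here, was given by mouth the kinase inhibitor regorafenib carried in nanoparticles of mannose-modified γ-cyclodextrin, and the control group was given PBS by mouth. Each group held 3 arrays, each from its own mouse, and all 6 arrays lay on 1 slide. The 2 arms differ in both drug and carrier, so the effects of regorafenib and of the nanoparticle cannot be told apart.

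TNF superfamily ligands are mostly membrane proteins that act as trimers, on the cell surface or after they are shed. Their receptors fall into those with a death domain, which can start caspase activation or necroptosis, those that bind TRAF adaptors and turn on NF-κB and MAP kinases, and decoys that bind ligand without signaling. In the inflamed colon TNF is a main driver of tissue damage and the target of antibody treatment, while other members direct lymphoid tissue, B cell survival, T cell costimulation and epithelial repair.

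The level of a gene is given as the scaled log2 intensity, that is the log2 intensity of its brightest tested probe minus the 75th percentile of that array, so 0 is a bright probe and each step of 1 is a doubling. A probe was tested when every array of 1 group or of both showed it well above background. Levels of different probes are not compared with each other. Values of a group are always given in the order of replicates 1, 2 and 3, and differences are RG@M-γ-CD minus PBS on the log2 scale with the standard error (SE) of the limma fit. Because the tissue is a mix of cells, fewer cells of a type and less RNA per cell cannot be told apart in any of these values.

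The share of gene probes well above background ran from 49.6% to 55.2% per array, and no gene probe was saturated. The lowest correlation between 2 arrays over all tested genes was 0.941, between RG@M-γ-CD replicates 1 and 2. RG@M-γ-CD replicate 1 correlated best with PBS replicate 3, at 0.987, and RG@M-γ-CD replicate 3 with PBS replicate 2, at 0.985, so neither was closest to an array of its own group. The other arrays were. RG@M-γ-CD replicate 2 was closest to replicate 3 (0.977), PBS replicate 1 to PBS replicate 3 (0.983), and PBS replicates 2 and 3 to each other (0.992). The markers of colon epithelium were present, with 8 of 8 genes tested and summed levels that overlapped between the groups. All RG@M-γ-CD arrays and PBS replicate 1 lay in row 1 of the slide, the other 2 PBS arrays in row 2, so position and group are partly confounded.

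The upstream sequences of 4 members are shown because the results below turn on them: Eda2r has the largest difference, Tnf is the founding ligand, Tnfrsf9 is the one of the 4 that holds an NF-κB consensus, and Ngfr is the one with higher values in the RG@M-γ-CD group. Each line gives the 250 bases before the transcription start of the RefSeq model, 5′ to 3′ on the strand of the gene, in build GRCm38.p6. Capitals mark matches on either strand to the NF-κB consensus or to TATAAA, and the 2 motifs do not overlap in them.
Eda2r, minus strand, chrX:97377210-97377459: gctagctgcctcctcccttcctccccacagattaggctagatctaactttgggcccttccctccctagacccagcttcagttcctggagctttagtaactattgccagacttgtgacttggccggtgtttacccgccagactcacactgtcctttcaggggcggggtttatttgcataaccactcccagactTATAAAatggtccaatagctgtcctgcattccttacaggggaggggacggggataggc
Tnf, minus strand, chr17:35202008-35202257: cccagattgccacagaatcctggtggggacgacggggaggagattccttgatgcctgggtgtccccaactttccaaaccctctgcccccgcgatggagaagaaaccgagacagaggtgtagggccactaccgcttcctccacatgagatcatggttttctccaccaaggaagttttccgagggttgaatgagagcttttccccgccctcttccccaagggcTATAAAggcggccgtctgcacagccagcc
Tnfrsf9, plus strand, downstream of its 2 starts, chr4:150927749-150927998: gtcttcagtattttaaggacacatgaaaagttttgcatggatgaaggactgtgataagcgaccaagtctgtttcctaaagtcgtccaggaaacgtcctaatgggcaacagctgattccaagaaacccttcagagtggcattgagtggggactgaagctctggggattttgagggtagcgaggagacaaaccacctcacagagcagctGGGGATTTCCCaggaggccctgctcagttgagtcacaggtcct
Ngfr, minus strand, chr11:95587699-95587948: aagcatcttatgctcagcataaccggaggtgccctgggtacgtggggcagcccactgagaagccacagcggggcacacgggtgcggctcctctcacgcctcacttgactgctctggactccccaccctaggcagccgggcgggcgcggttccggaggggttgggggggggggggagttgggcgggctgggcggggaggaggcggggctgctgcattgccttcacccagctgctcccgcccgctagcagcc

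The TATAAA match began 29 bases before the start of Tnf and 58 bases before that of Eda2r. In Tnfrsf9, a T cell costimulatory receptor, 2 overlapping NF-κB matches began 43 and 42 bases before the downstream start, and no match lay before its other start. Of the 34 tested members, 27 had an entry, with 31 starts in all. The NF-κB consensus was present before 3 of these 31 starts, in Tnfrsf9, Tnfrsf25 and Ltb, against 7.25% of all 32851 promoters of this length. TATAAA was present before 5, in Tnfrsf23, Tnfrsf17, Tnf, Lta and Eda2r, against 12.4% of all. A match is a description of these letters only. Cd40, Tnfrsf10b, Tnfsf12, Tnfsf9, Tnfrsf11b, Tnfsf13os and Tnfrsf22 had no entry.

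Of the 45 members, 34 were tested (10 ligands, 23 receptors and the antisense transcript) and 33 of these were well above background on all 6 arrays. None passed an adjusted p of 0.05 in the limma fit, as none of all 19090 genes did (0%), and the lowest adjusted p of a member was 1. At an unadjusted p below 0.05, 3 members were lower in the RG@M-γ-CD group (Eda2r, Tnfsf10 and Tnfrsf1b), where 1.33% of all genes were, and 1 was higher (Ngfr), where 0.864% of all genes were. The 3 arrays of the RG@M-γ-CD group lay below all PBS arrays for 4 members (Eda2r, Tnfsf10, Tnfrsf10b and Cd40), as for 2.19% of all genes, and above them for 1 (Ngfr), as for 2.38%. Cd40 entered the test through the PBS arrays alone, a route that favors lower RG@M-γ-CD values. With the filter on all 6 arrays, 3 members lay below all PBS arrays, beside 362 of 18121 genes. A difference below 0 was found for 28 of the 34 (27 with quantile normalization), with a median of −0.38. The median over all genes was −0.01 and 52.8% of them were below 0. With replicate 1 of both groups left out, 22 of the 34 (64.7%) were below 0, beside 60.8% of all genes. With all arrays, the median was −0.33 over the tested ligands and −0.41 over the tested receptors. By the unpaired t-test and the 2-fold threshold of the study's methods, Eda2r was the one member that passed, among 33 lower and 12 higher genes, and after Benjamini-Hochberg adjustment no gene did.

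**Figure D1:**
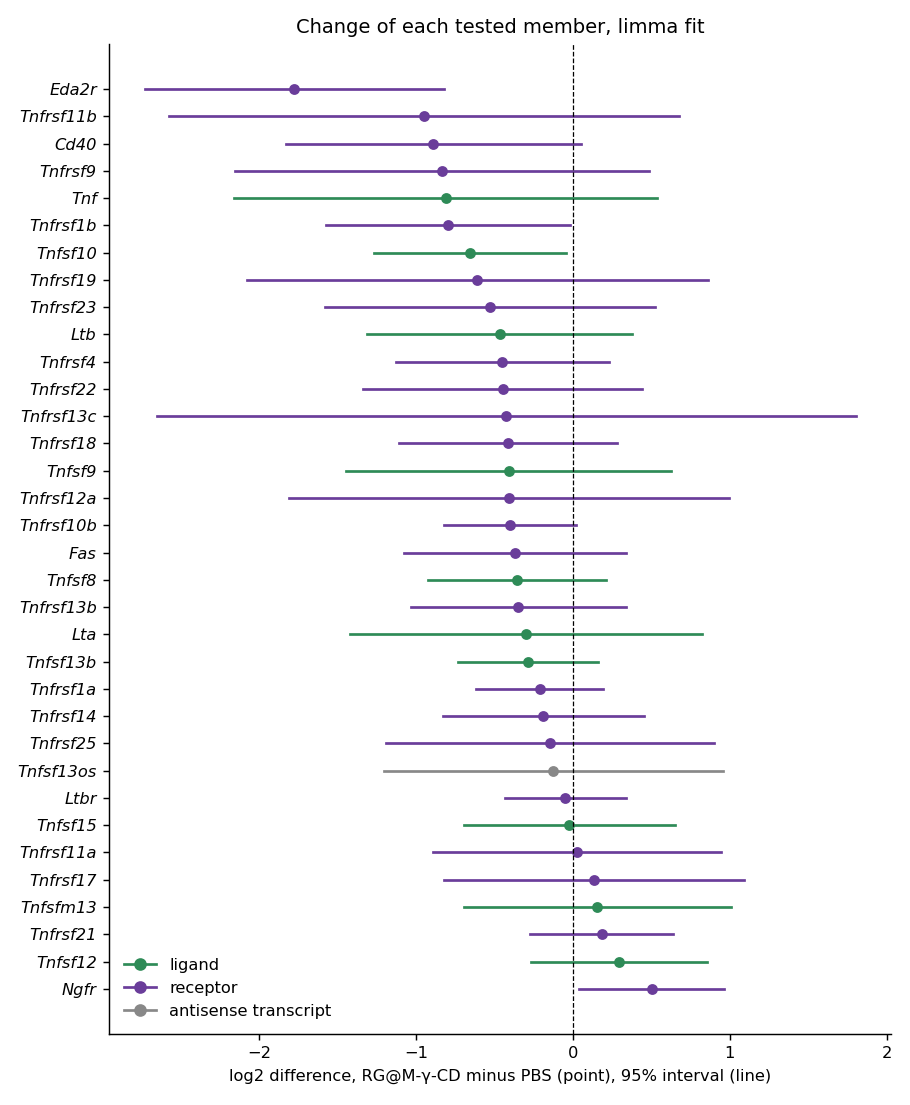
The log2 difference between the RG@M-γ-CD and PBS groups (x axis) is plotted for each of the 34 tested members (y axis), with the 95% interval of the limma fit as a line, ligands in green, receptors in purple and the antisense transcript in grey. Of the points, 28 lie below 0, and the intervals of Eda2r, Tnfsf10, Tnfrsf1b and Ngfr leave out 0.

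Eda2r, the receptor for the A2 form of ectodysplasin and a known target of p53, had the largest difference of the family. Its scaled log2 intensity was −2.60, −3.95 and −3.54 in the RG@M-γ-CD arrays and −2.09, −1.40 and −1.28 in the PBS arrays. All RG@M-γ-CD arrays lay below all PBS arrays, with replicate 1 of each group nearest to the other group. The difference was −1.77 (SE 0.40, 95% interval −2.73 to −0.82), a 3.42-fold lower mean, with an unadjusted p of 0.0035 in limma. The probe lies at chrX:94529458-94529517 in mm9. A second Eda2r probe was well above background on all 3 PBS arrays and on none of the RG@M-γ-CD arrays, so it gives a bound only, at least 2.13-fold higher in the PBS group. The tested probe was dim, with intensities of 25.2 to 88.8 in the RG@M-γ-CD group and 103.9 to 184.3 in the PBS group. With normexp in place of the scanner software's background correction the difference was −0.99 (unadjusted p 0.0016). Leaving out each array in turn gave −2.16 to −1.48, and Eda2r was the one member past the adjusted threshold when RG@M-γ-CD replicate 1 was left out (limma, adjusted p 0.044).

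The same branch holds receptors of skin appendages, glia and stem cells. Tnfrsf19 (TROY), an orphan receptor found in the nervous system and in intestinal stem cells, had levels of 3.40, 1.08 and 1.32 in the RG@M-γ-CD group and 2.21, 2.70 and 2.72 in the PBS group. Replicate 1 of RG@M-γ-CD was the highest of the 6 arrays and replicates 2 and 3 were the lowest, so the groups overlapped and the difference was −0.61 (SE 0.61). With RG@M-γ-CD replicate 1 left out, the value was −1.35 (SE 0.23, limma adjusted p 0.065), and with replicate 2 or 3 left out it was −0.18 or −0.30. A second Tnfrsf19 probe gave −0.60, at 0.15, −0.23 and −1.30 against 0.48, −0.14 and 0.10. On it replicate 1 of RG@M-γ-CD lay within the PBS range. Ngfr, the low-affinity receptor of the neurotrophins, which marks glia and some stromal cells, had higher values in the RG@M-γ-CD group. Its levels were −1.09, −1.04 and −0.60 in the RG@M-γ-CD arrays and −1.28, −1.56 and −1.40 in the PBS arrays. The groups did not overlap, and the difference was 0.50 (SE 0.19, limma unadjusted p 0.037), or 1.42-fold. In 6 of the 16 alternatives that kept the labels, Ngfr was no longer at an unadjusted p below 0.05, namely normexp, no filter on dim probes, a replicate block, and leaving out RG@M-γ-CD replicate 3, PBS replicate 2 or PBS replicate 3 (limma unadjusted p up to 0.139). The Ngfr probe lies at chr11:95430211-95430270 in mm9. Edar, the receptor for the A1 form of ectodysplasin, was too dim on all 6 arrays to be called well above background.

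The TNF and lymphotoxin branch held 7 tested members, all with a difference below 0 and a median of −0.30. Tnf itself, made mostly by macrophages and T cells, had levels of 0.42, −1.59 and −1.49 in the RG@M-γ-CD group and 0.27, −0.50 and 0.01 in the PBS group. Replicates 2 and 3 of RG@M-γ-CD lay below every PBS array and replicate 1 above every PBS array. The difference was −0.81 with an SE of 0.56 and an interval of −2.16 to 0.54, and the groups overlapped. Replicates 2 and 3 of RG@M-γ-CD alone gave −1.46 against the PBS arrays (SE 0.26, limma adjusted p 0.075), whereas the value was −0.46 with replicate 2 left out and −0.51 with replicate 3 left out. A second Tnf probe showed the same order of arrays within the RG@M-γ-CD group, with a difference of −0.70. The tested probe lies at chr17:35336795-35336854 in mm9.

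TNF binds 2 receptors. Tnfrsf1b, the second TNF receptor, found on lymphocytes and myeloid cells and without a death domain, had levels of 0.66, −0.45 and −0.06 in the RG@M-γ-CD arrays and 0.94, 0.50 and 1.1 in the PBS arrays. Replicate 1 of RG@M-γ-CD lay within the PBS range and the other 2 below it. The difference was −0.80 (SE 0.32, limma unadjusted p 0.046). Another Tnfrsf1b probe, 29.6 kb away in mm9, disagreed, at 0.01, and with the mean of both probes the difference was −0.39. Tnfrsf1b was not at an unadjusted p below 0.05 in 7 of the 16 alternatives, among them that mean and leaving out replicate 2 or 3 of RG@M-γ-CD or replicate 1 or 3 of PBS. Tnfrsf1a, the death domain receptor that most cells carry, had levels of 3.26, 3.0 and 3.32 against 3.25, 3.43 and 3.53. Its groups overlapped on this probe and the difference was −0.21 (SE 0.17). On a dimmer Tnfrsf1a probe the difference was −0.33, and all RG@M-γ-CD arrays lay below all PBS arrays. The gap there was small, with replicate 1 at −0.795 in the RG@M-γ-CD group and at −0.792 in the PBS group. Whether the 2 receptors differ from each other in their change was not tested.

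The lymphotoxins, which build lymphoid follicles, followed 1 PBS array. Ltb, the membrane anchor of the lymphotoxin heterotrimer, stood at 1.49, 1.26 and 1.34 in the RG@M-γ-CD group and at 2.62, 1.59 and 1.27 in the PBS group. Lta, the soluble partner, stood at −3.79, −3.71 and −3.51 against −2.40, −3.36 and −4.35. PBS replicate 1 was the highest array for both. Without it the difference of Ltb went from −0.47 to −0.07 and that of Lta from −0.30 to 0.19. Ltbr, their receptor on stromal and epithelial cells, was nearly level, at 3.40, 3.37 and 3.46 against 3.24, 3.59 and 3.55, a difference of −0.05 (SE 0.16, interval −0.44 to 0.34). Tnfrsf14, the herpesvirus entry mediator, had a difference of −0.19 (SE 0.27), and its ligand Tnfsf14 was well above background on 1 RG@M-γ-CD and 2 PBS arrays and was not tested.

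**Figure D2:**
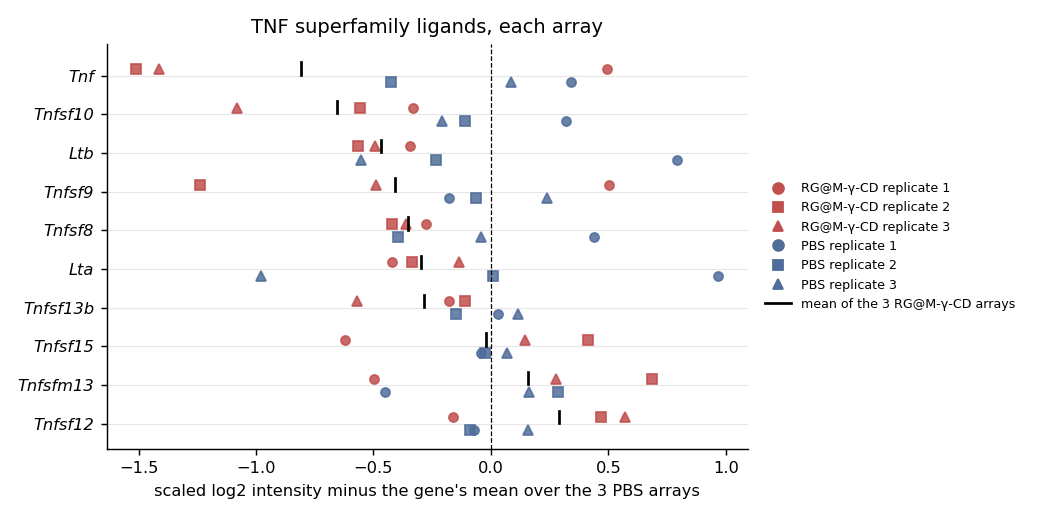
Each point is 1 array, plotted as its scaled log2 intensity minus the mean of the 3 PBS arrays for that gene (x axis) for the 10 tested ligands (y axis), red for RG@M-γ-CD and blue for PBS, with the shape giving the replicate and a black bar the RG@M-γ-CD mean. For Tnf and Tnfsf9, RG@M-γ-CD replicate 1 lies above and replicates 2 and 3 below all PBS arrays, and for Tnfsf10 the groups do not overlap.

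Of the death-inducing branch, 8 members were tested, 7 with a difference below 0, and the median was −0.38. Tnfsf10 (TRAIL), which kills transformed cells through death receptors, had levels of −0.05, −0.27 and −0.80 in the RG@M-γ-CD arrays and 0.60, 0.17 and 0.07 in the PBS arrays. All RG@M-γ-CD arrays lay below all PBS arrays, though replicate 1 of the one was 0.12 from replicate 3 of the other. The difference was −0.66 (SE 0.25, limma unadjusted p 0.039), or 1.58-fold lower, on a probe at chr3:27238508-27238567 in mm9. Tnfsf10 was not at that threshold in 5 of the 16 alternatives, and its difference was −0.44 with RG@M-γ-CD replicate 3 left out. A second Tnfsf10 probe gave −0.36, with overlapping groups. Tnfrsf10b (DR5), the death receptor for TRAIL in mice, had levels of 1.39, 1.21 and 1.30 against 1.45, 1.77 and 1.89. Its groups did not overlap either, with a difference of −0.40 (SE 0.17, limma unadjusted p 0.057) on the tested probe and −0.70 on a dimmer one. The decoy receptors for TRAIL, Tnfrsf22 and Tnfrsf23, had differences of −0.45 (SE 0.37) and −0.53 (SE 0.44) with overlapping groups. Tnfrsf26 was well above background on 0 of 6 arrays.

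Fas, the receptor for Fas ligand on epithelium and lymphocytes, had levels of −0.30, 0.77 and 0.36 in the RG@M-γ-CD group and 0.86, 0.48 and 0.59 in the PBS group. Replicate 1 of RG@M-γ-CD was the lowest array, replicate 3 lay below the PBS range and replicate 2 within it. The difference was −0.37 (SE 0.29) and −0.08 without that array, and the ligand Fasl was well above background on 0 of 6 arrays. A further probe named Fas maps to chr4:40555124-40555183 in mm9 while the other 2 lie on chr19. It was not the brightest, so it did not stand for the gene in the main fit, and it gave −0.27. The dimmer chr19 probe gave −0.12. The mean of probes, used as an alternative, took in the chr4 probe and gave −0.25. Tnfsf15 (TL1A), an endothelial and myeloid ligand that enhances gut inflammation, had a difference of −0.02 (SE 0.28), which turned to 0.0086 with quantile normalization, and its receptor Tnfrsf25 (DR3) −0.15 (SE 0.43). Tnfrsf21 (DR6), an orphan death receptor, had a difference of 0.18 (SE 0.19).

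In the branch of bone and wound repair, 2 of 4 tested members had a difference below 0. Tnfrsf11b (osteoprotegerin), the secreted decoy for RANK ligand, had levels of 4.14, 1.29 and 2.91 in the RG@M-γ-CD group and 3.90, 3.43 and 3.86 in the PBS group. Replicates 2 and 3 of RG@M-γ-CD lay below every PBS array and replicate 1 above every PBS array. The difference was −0.95 (SE 0.67) and, without replicate 1, −1.63 (SE 0.48, limma adjusted p 0.22). With replicate 2 left out instead, it was −0.20 (SE 0.39). Tnfrsf11a (RANK), the signaling receptor, ran the other way between these arrays, at 2.71, 4.20 and 3.80 against 3.40, 3.54 and 3.70. Its difference was 0.02 (SE 0.38), and 0.46 or −0.29 with RG@M-γ-CD replicate 1 or 2 left out. RANK ligand itself, Tnfsf11, was well above background on 1 RG@M-γ-CD and 2 PBS arrays and was not tested. Tnfrsf12a (Fn14), a receptor induced in injured epithelium, had a difference of −0.41 (SE 0.58) and its ligand Tnfsf12 (TWEAK) of 0.29 (SE 0.23). For Tnfrsf12a the value ran from −0.98, with RG@M-γ-CD replicate 1 left out, to 0.23, with replicate 2 left out.

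Of the B cell branch, 5 members were tested, 4 with a difference below 0, and the median was −0.35. Cd40, the receptor through which T cells activate B cells and macrophages, had levels of −3.60, −4.61 and −3.63 in the RG@M-γ-CD arrays and −2.44, −3.56 and −3.17 in the PBS arrays. The groups did not overlap, but the gap between RG@M-γ-CD replicate 1 and PBS replicate 2 was 0.04. The difference was −0.89 (SE 0.39, limma unadjusted p 0.060). Cd40 was not well above background on RG@M-γ-CD replicate 2, so it entered the test through the PBS arrays alone. The difference became −0.37 with normexp, −0.56 with RG@M-γ-CD replicate 2 left out and −0.58 with PBS replicate 1 left out. Its ligand Cd40lg was well above background on 0 of 6 arrays.

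Tnfrsf13c, the receptor for BAFF on mature B cells, had levels of −2.13, −2.00 and −0.89 in the RG@M-γ-CD group and 0.42, −0.86 and −3.31 in the PBS group. The PBS arrays held both the highest and the lowest value of the 6, and the difference was −0.42 (SE 0.93). The value became 0.41 when PBS replicate 1 was left out and −1.46 when PBS replicate 3 was. Tnfrsf13b (TACI), a second BAFF receptor, had a difference of −0.35 (SE 0.29), and −0.04 without PBS replicate 1. Tnfsf13b (BAFF), the survival factor itself, varied little, at −1.22, −1.15 and −1.61 against −1.01, −1.19 and −0.93, a difference of −0.29 (SE 0.19). A second Tnfsf13b probe went the other way, at 0.08. Tnfrsf17 (BCMA), carried by plasma cells, stood at −4.17, −2.69 and −3.25 against −3.81, −3.56 and −3.14, a difference of 0.13 (SE 0.40). The summed level of 4 plasma cell markers overlapped between the groups as well, at 46.0 to 52.5 against 33.8 to 51.5.

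The ligand APRIL has no probe under the name Tnfsf13 here. Tnfsfm13, a read-through of Tnfsf12 and Tnfsf13, had a difference of 0.16 (SE 0.35). The antisense transcript Tnfsf13os had a difference of −0.12 (SE 0.45).

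Markers of B cells also differed widely among the PBS arrays. Of 6 markers, 3 were tested, all with a difference below 0, and their summed level, relative to the 75th percentile of each array, was 14.8 in PBS replicate 1, 6.69 in PBS replicate 2, 1.23 in PBS replicate 3 and 2.34 to 4.95 in the RG@M-γ-CD group. Of the defining markers, Ms4a1 was well above background on all 6 arrays, whereas Blk was well above background on 0 of 6 arrays and Pax5 on 2. The order of the PBS arrays in this sum is that of Tnfrsf13c, Tnfrsf13b, Ltb and Lta but not that of Cd40, Tnfsf13b or Tnfrsf17. It is also that of members outside the B cell and lymphotoxin branches, namely Tnfsf10, Tnfrsf25 and Tnfsf13os. The part of B cell number in the values of these members was not tested.

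Of the receptors and ligands that costimulate T cells, 5 of 10 were tested, all with a difference below 0 and overlapping groups, and the median was −0.41. Tnfrsf9 (CD137), induced on activated T cells, had levels of −0.21, −2.48 and −1.81 in the RG@M-γ-CD group and −0.74, −0.67 and −0.57 in the PBS group. Replicate 1 of RG@M-γ-CD was above the PBS arrays, which lay within 0.17 of each other, and replicates 2 and 3 were below them. The difference was −0.83 (SE 0.55), and −1.48 without RG@M-γ-CD replicate 1 (SE 0.24, limma adjusted p 0.061). Leaving out replicate 2 instead gave −0.34 (SE 0.46). A second Tnfrsf9 probe gave −1.03 with the same order of arrays within the RG@M-γ-CD group.

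Its ligand Tnfsf9, found on antigen-presenting cells, had a difference of −0.41 (SE 0.43), and 0.01 or −0.86 with RG@M-γ-CD replicate 2 or 1 left out. Tnfrsf4 (OX40) and Tnfrsf18 (GITR), both on regulatory and activated T cells, had differences of −0.45 (SE 0.28) and −0.41 (SE 0.29). Tnfsf8 (CD30 ligand) had a difference of −0.35 (SE 0.24). Cd27, Cd70, Tnfrsf8 and Tnfsf4 were well above background on 0 of 6 arrays, and Tnfsf18 was so on 1 PBS array.

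T cell and macrophage markers had differences in the same direction. All 6 tested T cell markers had a difference below 0 (median −0.47), and their summed level was 5.12 to 7.65 in the RG@M-γ-CD group and 7.34 to 9.08 in the PBS group. All 5 macrophage markers had a difference below 0 (median −0.41), with sums of 30.0, 19.2 and 19.0 in RG@M-γ-CD replicates 1, 2 and 3 and 27.1 to 31.9 in the PBS group. Their part in the values of Tnf, Tnfrsf1b, Tnfrsf4, Tnfrsf9, Tnfrsf18 and Cd40 was not tested. Of the 5 neutrophil markers, 4 had a difference below 0 (median −1.75), with sums of 46.7 to 98.9 in the RG@M-γ-CD group and 59.1 to 103 in the PBS group, with RG@M-γ-CD replicate 1 highest of its group as it was for Tnf. Smooth muscle markers spread widely, with sums of 92.8, 612 and 731 in RG@M-γ-CD replicates 1, 2 and 3 and 182 to 210 in the PBS group. The RG@M-γ-CD arrays thus lay on both sides of the PBS arrays for this tissue component. They did so in the opposite sense on the brightest tested probes of Tnf, Tnfsf9, Tnfrsf9, Tnfrsf11b and Tnfrsf19. On those of Tnfrsf11a, Tnfsf12 and Tnfsf15 they did so in the same sense as the muscle sum. The part of muscle content in these members was not tested.

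**Figure D3:**
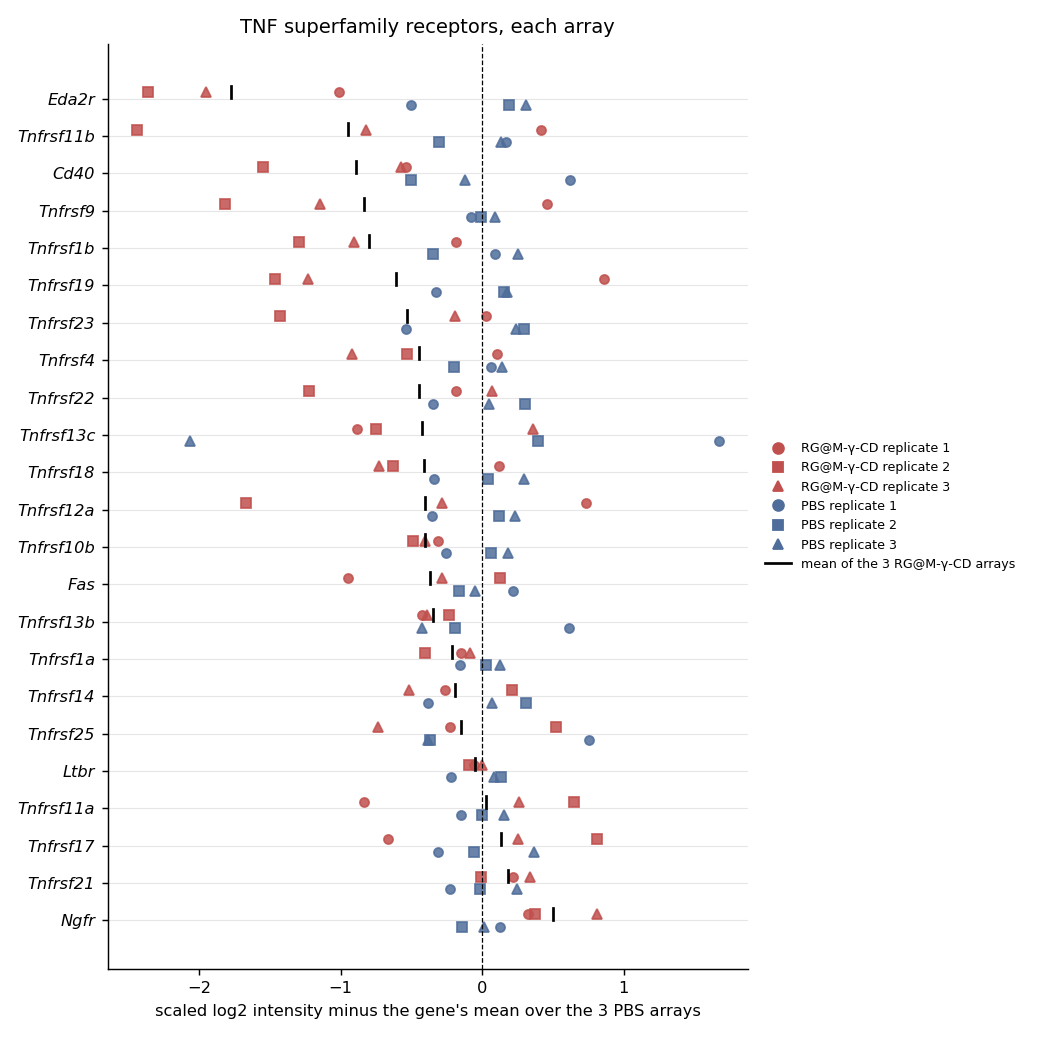
Each point is 1 array, plotted as its scaled log2 intensity minus the mean of the 3 PBS arrays for that gene (x axis) for the 23 tested receptors (y axis), with colors, shapes and bars as for the ligands. RG@M-γ-CD replicate 1 lies above all PBS arrays for Tnfrsf9, Tnfrsf11b, Tnfrsf12a and Tnfrsf19, where replicate 2 lies far below them, and PBS replicate 1 is the highest array for Tnfrsf13c and Tnfrsf13b.

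**Figure D4:**
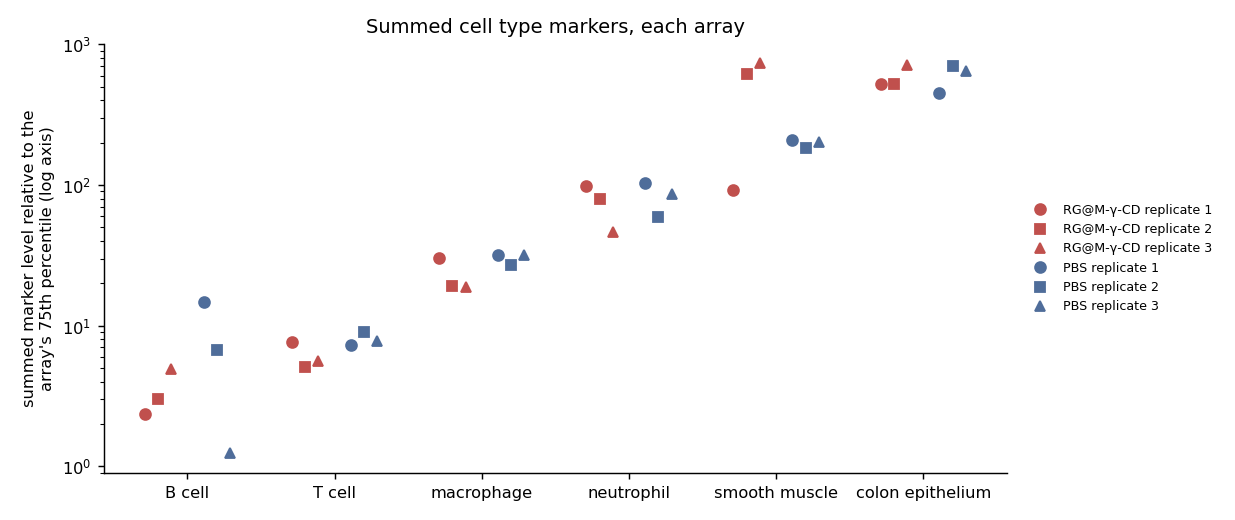
Summed levels of 6 marker lists (x axis), relative to the 75th percentile of each array and on a log axis (y axis), are plotted for each array with the same colors and shapes. RG@M-γ-CD replicate 1 has the lowest smooth muscle sum, 92.8, and RG@M-γ-CD replicates 2 and 3 the highest, and PBS replicate 1 has the highest B cell sum, 14.8.

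Leaving out RG@M-γ-CD replicate 1 changed the counts more than leaving out any other array. Replicate 2 was the highest of the 6 arrays for 5 of the 34 members and the lowest for 15, and replicate 1 was the highest for 6 and the lowest for 8. Within the range of the 3 PBS arrays lay 14 of the 34 members in RG@M-γ-CD replicate 1, 9 in replicate 2 and 12 in replicate 3, and below the range lay 13, 18 and 17. The limma fit without replicate 1 called 202 of 19466 genes at an adjusted p below 0.05 (1.04%), among them 1 member, Eda2r. At an unadjusted p below 0.05, 11 members were then lower, where 5.42% of all genes were, and 2 were higher (Ngfr and Tnfsf12), where 7.05% of all genes were. These 13 included all 4 of the members at that threshold with all arrays. The 11 lower members were Eda2r, Tnf, Tnfrsf9, Tnfrsf19, Tnfrsf1b, Tnfrsf4, Tnfrsf11b, Tnfrsf18, Tnfsf9, Tnfsf10 and Cd40, with differences from −2.16 to −0.68. They were named after their values were seen, and the comparison then rests on 2 RG@M-γ-CD arrays. Among them, Cd40 entered through the PBS arrays alone. The median of the members went from −0.38 to −0.37, with 26 of the 34 then below 0. That of all genes went from −0.01 to −0.03, with 54.8% of them then below 0.

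A clustered heat map in the study labels its columns by array number, with no condition named. There array 5 (RG@M-γ-CD replicate 1) clusters with arrays 10 and 11 (PBS replicates 2 and 3). Array 8 (PBS replicate 1) clusters with arrays 6 and 7 (RG@M-γ-CD replicates 2 and 3). Whether the labels of arrays 5 and 8 were exchanged was not tested, and the comparison of RG@M-γ-CD with PBS keeps the labels throughout. With both arrays of replicate number 1 left out, 11 members were lower at an unadjusted p below 0.05, where 5.81% of all genes were, and 1 was higher, where 6.49% of all genes were. The median was then −0.32 over the members and −0.09 over all genes. Eda2r then had a difference of −2.41 (SE 0.22, limma adjusted p 0.074). Contrasting arrays 6, 7 and 8 with arrays 5, 10 and 11, with neither side named as treated, put 7 members lower in arrays 6, 7 and 8 at that threshold (8.79% of all genes) and 0 higher (7.76%). These 7 were Eda2r, Tnfrsf9, Tnfrsf12a, Tnfrsf18, Tnfrsf19, Tnfrsf23 and Tnfsf9. In this contrast 20 of the 34 members (58.8%) were below 0, beside 63.8% of all genes, with medians of −0.15 and −0.12. Since that grouping follows measured values, its p-values have no independent meaning.

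**Figure D5:**
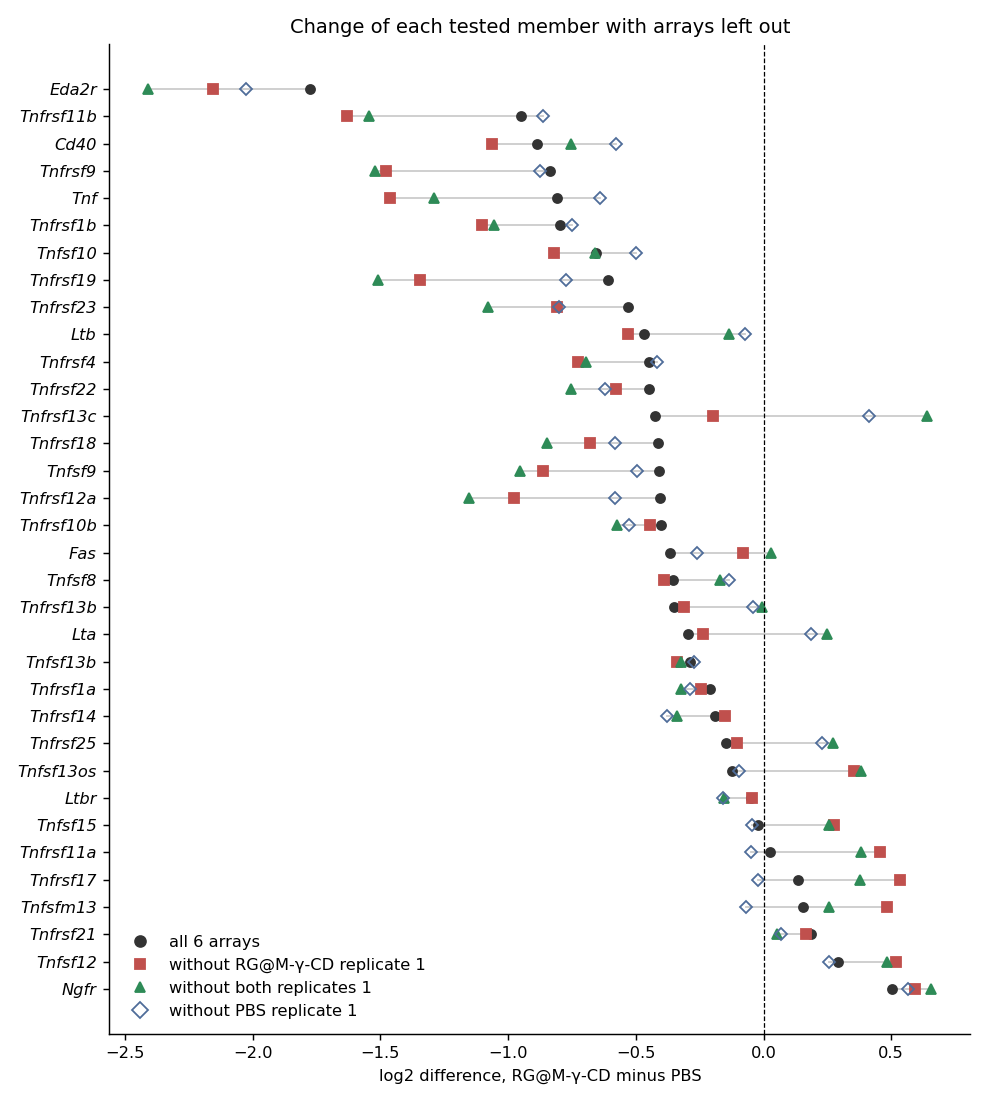
The log2 difference between the RG@M-γ-CD and PBS groups (x axis) is plotted for each tested member (y axis) with all 6 arrays, without RG@M-γ-CD replicate 1, without PBS replicate 1 and without both. Leaving out RG@M-γ-CD replicate 1 moves Tnf from −0.81 to −1.46 and Tnfrsf9 from −0.83 to −1.48, and leaving out PBS replicate 1 turns Tnfrsf13c from −0.42 to 0.41.

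Genes of the pathway around the receptors, from the shedding of ligands to NF-κB and genes that TNF induces, were taken from lists. Of 47, 43 were tested, 34 with a difference below 0, and their median of −0.15 stood between that of all genes, −0.01, and that of the members, −0.38. One was lower at an unadjusted p below 0.05, where 1.33% of all genes were, namely Rel, a subunit of NF-κB in lymphocytes and myeloid cells. Its levels were 2.01, 1.03 and 1.28 in the RG@M-γ-CD arrays and 2.54, 2.01 and 2.40 in the PBS arrays, so the groups overlapped slightly, and the difference was −0.87 (SE 0.30, limma unadjusted p 0.023, adjusted p 1). The groups did not overlap for 2 others, both lower, as 2.19% of all genes were, and both named after their values were seen: Mlkl, the executor of necroptosis (−0.37, SE 0.19), and Rhbdf2, which brings the TNF sheddase to the surface (−0.38, SE 0.17). The median was −0.16 over 13 adaptors and death domain partners, −0.11 over 14 genes of the NF-κB core, −0.04 over 7 brakes such as Tnfaip3, −0.17 over 4 shedding genes and −0.31 over 5 genes that TNF induces. None of the 43 passed the adjusted threshold.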

How the data were processed

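RNA from colon tissue with tumors of 3 RG@M-γ-CD and 3 PBS mice was labelled with Cy3 and hybridized to Agilent SurePrint G3 mouse arrays. The authors extracted the deposited intensity values with Agilent Feature Extraction 10.7.1.1, and deposited a table of log2 values of the same arrays, used as an alternative. Here the processed intensity of each probe, averaged over spots not marked as outliers, was taken to log2, and the 75th percentile of gene probes was subtracted. A probe entered the test if every array of 1 group or of both showed it well above background, and the brightest such probe stood for its gene. Of 56605 gene probes, 32994 were named through RefSeq accessions and 23611 kept the name of the file. Groups were compared across all 19090 genes with limma 3.58.1 in R 4.3.3 (lmFit, eBayes, two-sided) and Benjamini-Hochberg adjustment at 0.05, and the fit was tested on simulated data. An exact permutation test of 3 against 3 cannot go below 0.1. The number of arrays limits the precision. Members and gene lists were chosen with earlier results of these data known. All members were named in the report, with values per array for those at an unadjusted p below 0.05, those whose groups did not overlap and a core list. Marker sums add the linear scaled levels of the tested genes. 1 B cell marker is not reported here and was left out of its sum. Promoter sequences are those of RefSeq. Alternatives were quantile normalization, normexp (offset 50), the authors' log2 table, other filters, the mean of probes, outlier spots kept, a replicate block, the t-test of the methods, leaving out arrays and another grouping. Figures were drawn with matplotlib.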

Additional observations from a re-analysis of the deposited data

How the results depend on the processing

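No gene and no member passed the adjusted threshold in the 9 alternatives that kept the labels and all arrays. Leaving out 1 array in turn gave 0 to 202 genes and 0 to 1 members past it (202 and 1 without RG@M-γ-CD replicate 1), with 1 to 11 members lower and 0 to 2 higher at an unadjusted p below 0.05, against 0.668% to 5.42% and 0.501% to 7.05% of all genes. At that p, normexp gave 5 lower and 0 higher (1.16% and 0.524% of all genes), no filter on dim probes 0 higher (1.02%), and leaving out both replicates 1 gave 11 lower (5.81%). The contrast of arrays 6, 7 and 8 with 5, 10 and 11 gave 5 genes past the adjusted threshold, 7 members lower (8.79%) and 0 higher (7.76%). The labels share replicate numbers, and the deviations of same-numbered arrays correlated at −0.25, −0.23 and 0.14. Each of these values rests on 1 pair of arrays, so they cannot settle whether the numbers pair the arrays. The main fit treated the arrays as unpaired. With a replicate block 4 members were lower (1.5% of all genes) and 0 higher (0.932%) at the unadjusted p, and 0 genes passed the adjusted threshold.

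The direction held in 18 of the 34 members throughout, and in 33 where all arrays and the labels were kept. Tnfsf15 was the exception, at 0.0086 with quantile normalization and 0.0090 in the authors' table. With 1 array left out, the difference ran from −0.79 to 0.19 for Lta, −0.16 to 0.017 for Ltbr, −0.29 to 0.46 for Tnfrsf11a, −0.98 to 0.23 for Tnfrsf12a, −1.46 to 0.41 for Tnfrsf13c, −0.21 to 0.53 for Tnfrsf17, −0.48 to 0.23 for Tnfrsf25, −0.59 to 0.35 for Tnfsf13os, −0.24 to 0.28 for Tnfsf15, −0.86 to 0.0073 for Tnfsf9 and −0.11 to 0.48 for Tnfsfm13. Without both replicates 1 the difference was 0.029 for Fas, 0.25 for Lta, 0.64 for Tnfrsf13c, 0.27 for Tnfrsf25, 0.38 for Tnfsf13os and 0.26 for Tnfsf15. In arrays 6, 7 and 8 against 5, 10 and 11 it was 0.41 for Fas, 0.63 for Lta, 0.29 for Ltb, 0.34 for Tnfrsf13b, 1.28 for Tnfrsf13c, −0.12 for Tnfrsf21, 0.51 for Tnfrsf25, 0.63 for Tnfsf13os, 0.36 for Tnfsf15 and 0.13 for Tnfsf8. Normexp moved the dim probes of Eda2r and Cd40 to −0.99 and −0.37.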
